A study of Mus musculus with 76 samples.

Results

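The semaphorins and their plexin and neuropilin receptors, together with the ephrins and their Eph receptors, were examined in mouse tumours kept growing by 13 different introduced genes. Members were taken by gene symbol, as every Sema, Plxn, Epha, Ephb, Efna or Efnb gene on the array plus Nrp1 and Nrp2, with the probe set of the highest mean signal standing for each gene. This gave 53 of the 18194 symbols on the array: 20 semaphorins, 10 plexin symbols, 2 neuropilins, 8 ephrins and 13 Eph receptors. Of these, 49 passed a filter on low signal and entered the tests beside all 13868 genes that passed. Efna3, Epha6, Epha7 and Plxna4os1, an antisense RNA of the Plxna4 locus counted here only because its symbol matches, did not pass and were not tested.

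Semaphorins are secreted or membrane-bound ligands that steer axons, vessels and migrating cells by binding plexins, and most secreted class 3 semaphorins need a neuropilin as the ligand-binding partner of the plexin. Ephrins are ligands tethered to the cell surface, the A type by a lipid anchor and the B type by a transmembrane segment, and they signal at cell contacts through Eph receptors, the largest family of receptor tyrosine kinases. Both systems set boundaries between cells, shape blood vessels and epithelia in development, and are altered in many carcinomas.

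The tumours came from C57BL/6 mice in a directed complementation model. The parent tumour was driven by a doxycycline-inducible HER2 oncogene with the V659E change. Doxycycline was withdrawn, which silenced that oncogene, and 1 of 13 genes was introduced in its place, so every group shares the silenced parent oncogene. The introduced genes were MAP3K11 (MLK3), the only group whose mice were labelled with cachexia, and MAP3K7 (TAK1), ErbB3, FAK1, FGFR2aIIIb, FGFR2aIIIc, FGFR3, HER2, PIP5K1B, RONd160, RON+MSP, RSK2 and TNK2, all labelled without cachexia. There were 76 arrays, 4 for FAK1 and 6 for each other group, labelled T1, T2 or T3 with a replicate number. The labels do not say what T1 to T3 stand for, which promoter drove the introduced gene, how old the mice were or from which tissue the tumours came. Introduced gene and cachexia cannot be told apart, since all 6 MAP3K11 arrays and no other carry that label.

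Values are log2 signals on which array medians ran between 5.45 and 5.56, and the bacterial control probe sets had a median of 2.95. Within each group every array was matched to 1 other by its autosome medians, so the number of pairs, 38 in all, was fixed in advance. Each pair joined arrays of different T labels. The median correlation of expression deviations within pairs was 0.77, and 0.27 for arrays of the same group that were not paired, so arrays of a pair may not be independent. Not all pairs were closely alike. The lowest correlation within a pair was 0.36, for FGFR2aIIIc T1 replicate 1 and T2 replicate 1. Members were therefore also fitted with the pair as a random block, and p-values from that fit are named as such. Counts of marker and partner genes come from the fit without it. Pairs were found from the data, not from the labels. In the MAP3K7 group, the pair formed by T1 replicate 2 and T3 replicate 1 lay outside the range of the other 4 arrays for 27 of the 49 members (55.1%) and for 47.5% of all genes tested. Of 11 epithelial markers, 10 passed the filter, and none was at or below the control level in MAP3K11, HER2 or ErbB3 tumours, while 1 was in PIP5K1B tumours. The labels call every array a biological replicate without naming animals, so p-values measure only the spread between these arrays. The bulk signal cannot separate fewer cells of a type from less RNA per cell.

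Most members varied with the introduced gene, as did most genes tested. In a limma F test over the 13 groups, 46 of 49 members differed at an adjusted p under 0.05, beside 85.9% of all genes tested. Efnb3, Epha1 and Epha10 did not pass. With the pair as a block, 34 members passed, beside 54.0% of all genes. The range of the 13 group means had a median of 0.99 log2 units over the members and 0.55 over all genes. The 6 widest ranges belonged to Epha3 with 2.95, Sema5a with 2.76, Ephb6 with 2.31, Epha5 with 2.16, Sema4g with 1.97 and Sema3d with 1.95 log2 units. No member differed by T label in the limma test, and none had an unadjusted p under 0.05 there, while 325 of all genes did and 0 of them passed after adjustment.

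**Figure D1:**
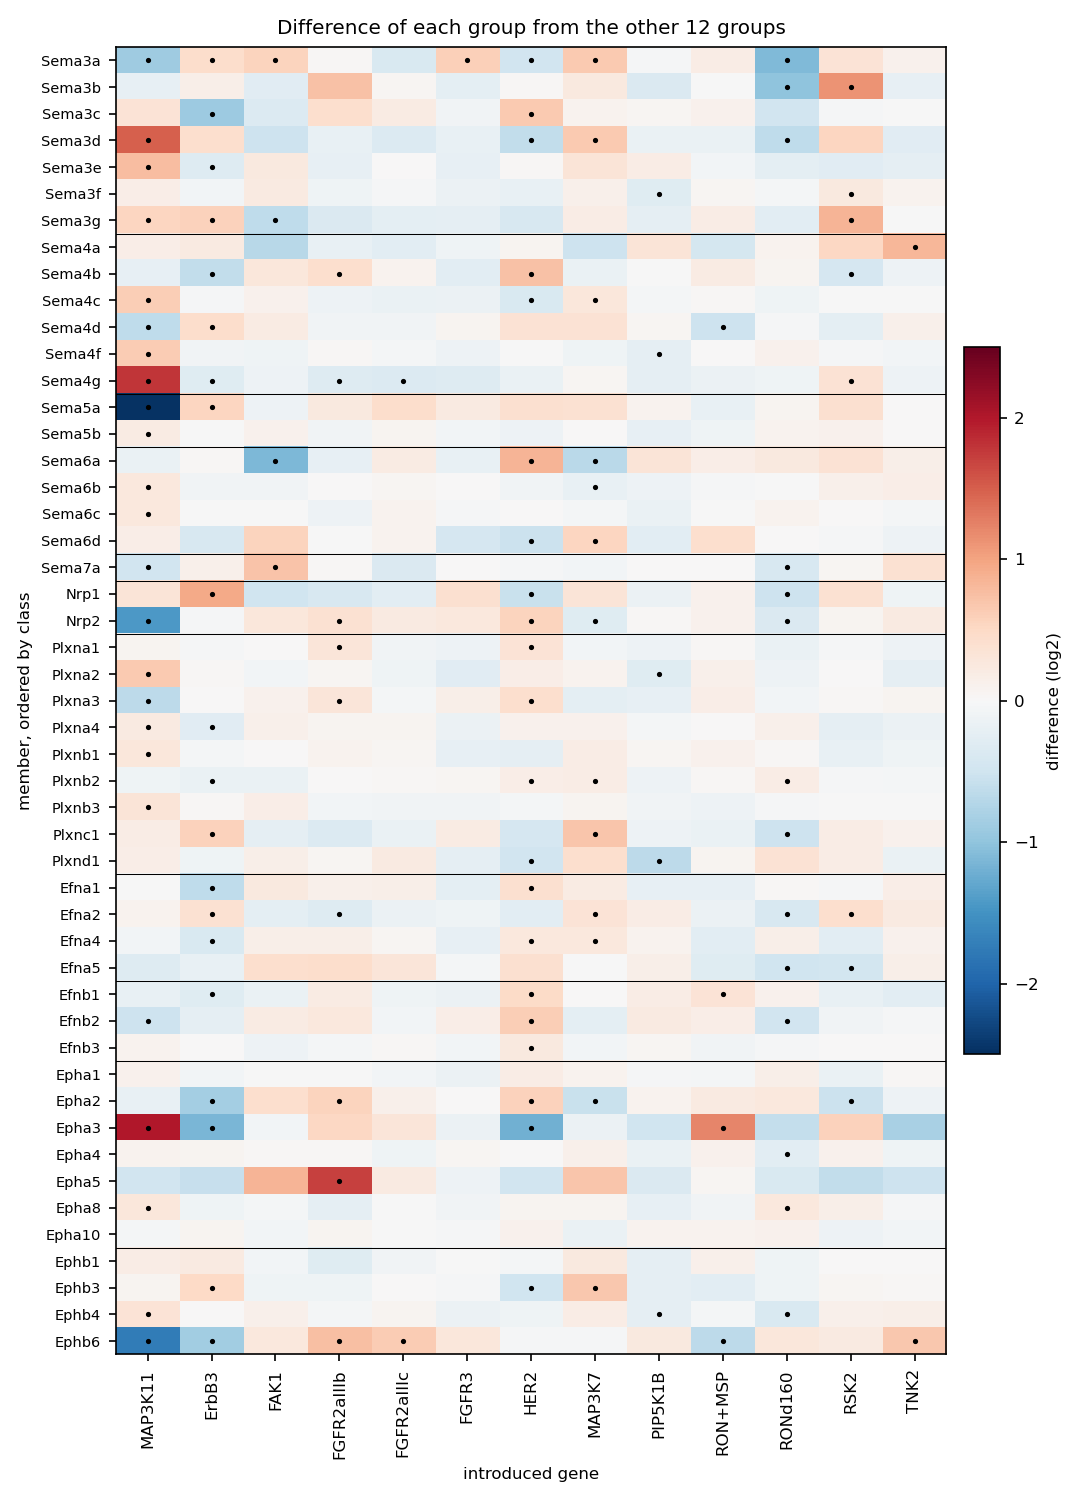
Difference of each group from the mean of the group means of the other 12 (colour, log2) for the 49 members tested, ordered by class down the page, with the 13 introduced genes across and a dot where the adjusted p was under 0.05. The deepest colours lie in the MAP3K11 column, for Sema5a at -2.46, Epha3 at 1.99, Sema4g at 1.79 and Ephb6 at -1.76.

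MAP3K11 tumours held the widest differences in single members. Sema5a and Nrp2 fell in every array below all other tumours, while Sema4g rose above all others. Against the mean of the other 12 groups, 24 of 49 members were called, 16 higher and 8 lower, which is 49.0% of members beside 54.2% of all genes tested, 25% higher and 29.3% lower. Of 20 semaphorins, 9 were higher and 4 lower. Of 11 plexins and neuropilins tested, 4 were higher and 2 lower. Of 7 ephrins, 0 were higher and 1 lower, and of 11 Eph receptors, 3 were higher and 1 lower. With the pair as a block, 18 members kept the call, beside 39.3% of all genes.

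Sema5a encodes a transmembrane semaphorin with thrombospondin repeats that can attract or repel axons. Its log2 signal had a lowest value of 5.87, a median of 6.92 and a highest value of 7.35 in MAP3K11 tumours, against 8.10, 9.18 and 10.43 in the 70 other arrays. The groups did not overlap. The difference was -2.46 ± 0.19 (SE), a 5.52-fold lower signal, with an adjusted p of 1.23e-17 by limma and 3.97e-13 with the pair as a block. The other 3 Sema5a probe sets gave plain differences of group means of -2.83, -1.28 and -0.21, the last on a probe set averaging 3.50.

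Sema4g, a membrane-bound class 4 semaphorin that binds plexin B2, moved the other way. It had a lowest value of 6.53, a median of 7.15 and a highest value of 7.37 in MAP3K11 tumours, against 4.75, 5.25 and 6.33 in the other arrays. Again the groups did not overlap, and the nearest other array was 1 of RSK2. The difference was 1.79 ± 0.09 (SE), or 3.46-fold higher, with an adjusted p of 4.74e-25 by limma.

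Nrp2 is the neuropilin that binds Sema3f, Sema3g and the lymphatic growth factor Vegfc. It had a lowest value of 8.58, a median of 9.04 and a highest value of 9.33 in MAP3K11 tumours, against 9.40, 10.49 and 11.16 in the other arrays. The gap to the nearest array, MAP3K7 T1 replicate 2, was small. The difference was -1.43 ± 0.11 (SE), or 2.69-fold lower, with an adjusted p of 6.32e-18 by limma, and the other 3 Nrp2 probe sets gave plain differences between -1.19 and -0.95. The partner receptor Nrp1, which binds Sema3a and vascular endothelial growth factor, was not called. Over all genes tested, 465 (3.35%) had every MAP3K11 array above or below every other array, and 3 of the 49 members did.

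The start regions of these 3 genes are shown because each separated all MAP3K11 arrays from all others. RefSeq promoter windows on GRCm38.p6 were available for 46 of the 53 members, in 60 windows. The 250 bases before an annotated transcript start are printed in the direction of transcription, with each CpG dinucleotide in capitals. The Sema4g window is chr19:44989094-44989343, plus strand. It lies inside the annotated gene, which spans chr19:44988743-45003397, and so is not upstream of the whole gene. The Sema5a window is chr15:32244563-32244812 and the Nrp2 window chr1:62703067-62703316, both on the plus strand.
Sema4g: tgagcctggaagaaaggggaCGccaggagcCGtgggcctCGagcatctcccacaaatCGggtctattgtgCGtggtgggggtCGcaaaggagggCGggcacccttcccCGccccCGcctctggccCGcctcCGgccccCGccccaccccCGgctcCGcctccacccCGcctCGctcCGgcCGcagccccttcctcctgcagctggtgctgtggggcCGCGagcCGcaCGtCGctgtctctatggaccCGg
Sema5a: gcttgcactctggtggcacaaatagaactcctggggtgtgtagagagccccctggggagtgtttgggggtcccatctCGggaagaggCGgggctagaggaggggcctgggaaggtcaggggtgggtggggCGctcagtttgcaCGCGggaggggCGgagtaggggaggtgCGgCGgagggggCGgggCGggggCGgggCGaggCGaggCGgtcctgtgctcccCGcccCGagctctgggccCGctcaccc
Nrp2: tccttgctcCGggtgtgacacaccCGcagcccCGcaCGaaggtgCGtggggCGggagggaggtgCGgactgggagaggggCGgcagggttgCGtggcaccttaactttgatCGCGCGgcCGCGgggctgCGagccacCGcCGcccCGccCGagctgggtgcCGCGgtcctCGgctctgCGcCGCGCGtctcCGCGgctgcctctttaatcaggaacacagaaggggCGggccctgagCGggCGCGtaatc
The Sema4g window held 24 CpG, the Sema5a window 17 and the Nrp2 window 32, against a median of 6 over all 32851 mouse promoter windows. At least as many CpG were found in 12%, 23.5% and 4.58% of all windows for Sema4g, Sema5a and Nrp2. The arrays carry no methylation or binding data for these windows.

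Other class 3 and class 4 semaphorins also moved in MAP3K11 tumours. Sema3a, the secreted repellent that acts through Nrp1, had a lowest value of 7.88, a median of 8.25 and a highest value of 8.90 in MAP3K11 tumours, against 7.37, 9.33 and 9.99 in the other arrays. It was -0.88 ± 0.14 (SE), with an adjusted p of 1.69e-07 by limma, and all 6 arrays lay below the mean of the other groups. Only RONd160 tumours reached lower. Sema3d, a secreted semaphorin of heart and vessel patterning, had 4.38, 5.42 and 6.58 as lowest, median and highest value in MAP3K11 tumours, against 3.30, 3.87 and 6.92 elsewhere. The highest value elsewhere came from a single RSK2 array, but other arrays also lay within the MAP3K11 range. Among them were its paired RSK2 array at 5.35 and MAP3K7 T1 replicate 2 and T3 replicate 1 at 4.73 and 5.46. The other 4 MAP3K7 arrays reached 5.16. The difference was 1.49 ± 0.24 (SE), with an adjusted p of 2.51e-07.

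Sema3e, which binds plexin D1 without a neuropilin and restrains vessels, was higher by 0.76 ± 0.12 (SE), with an adjusted p of 3.53e-07 by limma. All 4 of its probe sets were up by 0.77 to 1.11. It ran from 5.44 to 6.09 in MAP3K11 tumours. MAP3K7 T1 replicate 2 and T3 replicate 1 lay within that range at 5.98 and 5.89, and the other 4 MAP3K7 arrays reached 5.38. Sema4c, a ligand of plexin B2, ran from 8.82 to 9.29 in MAP3K11 tumours, against 7.91 to 8.98 elsewhere, a difference of 0.61 ± 0.07 (SE) with an adjusted p of 8.24e-11. Sema4f ran from 5.84 to 6.42 in MAP3K11 tumours, against 5.15 to 5.87 elsewhere, a difference of 0.63 ± 0.06 (SE) with an adjusted p of 3.43e-13. Both nearly separated the groups. The second Sema4f probe set differed by 2.54 log2 units in the same direction. Sema4d, the ligand of plexin B1, went down by 0.64 instead (-0.64 ± 0.16, SE; adjusted p 0.000505). Sema7a, a lipid-anchored semaphorin that binds plexin C1 and integrins, was at -0.48 ± 0.12 (SE), with an adjusted p of 0.000612. Class 4 thus split, with Sema4c, Sema4f and Sema4g higher, Sema4d lower, and Sema4a and Sema4b not called.

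RefSeq lists 2 start windows for Sema4c, both inside the annotated gene, which spans chr1:36548639-36560699. The one shown was 1 of 3 among the 60 member windows to hold the motif TGANTCA, the site of AP-1, which is formed by Jun and Fos proteins. It lies on chr1:36558382-36558631, minus strand, of GRCm38.p6 (RefSeq), and the motif is in capitals.
Sema4c: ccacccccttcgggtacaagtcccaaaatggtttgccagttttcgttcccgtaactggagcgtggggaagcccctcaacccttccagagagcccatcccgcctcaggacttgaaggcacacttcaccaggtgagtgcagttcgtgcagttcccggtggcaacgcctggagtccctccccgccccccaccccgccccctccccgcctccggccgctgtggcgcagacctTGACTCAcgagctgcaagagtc
The motif begins 22 bases before this start, and the other Sema4c window, chr1:36557558-36557807, minus strand, held 0 matches. It was searched on both strands and occurred in 6.75% of all 32851 windows, and Sema4d and Sema6b held the other member matches. The cyclic AMP response element TGACGTCA, also searched on both strands, occurred in 1.55% of all windows and in 1 member window, that of Epha2. A match is a run of letters and shows no binding.

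Sema3g, a class 3 semaphorin that binds Nrp2 and is made by endothelium, was 0.53 ± 0.16 (SE) higher in MAP3K11 tumours, with an adjusted p of 0.00433 by limma. It was 0.0651 with the pair as a block. With the mean of 16 endothelial markers as a covariate, the difference was 0.21 with an adjusted p of 0.229. Of those 16 markers, 14 were higher and 0 lower in MAP3K11 tumours, where the list mean ran from 0.26 to 0.56 about its mean over all arrays, against -1.24 to 0.96 elsewhere, and none of the markers was at the control level. For Sema5a, Nrp2 and Sema4g the same covariate left differences of -2.44, -1.39 and 1.75. Markers of other cells also moved: 8 of 12 fibroblast markers were higher and 1 lower, 6 of 9 smooth muscle and pericyte markers and 6 of 10 epithelial markers were higher, while 7 of 14 macrophage and 10 of 15 skeletal muscle markers were lower. Apart from the endothelial and muscle lists, their part in the members' differences was not tested.

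Among the plexins, Plxna2 and Plxna3 parted in MAP3K11 tumours. Plxna2, a receptor for class 6 semaphorins and, with neuropilins, for class 3, ran from 5.91 to 6.82 in MAP3K11 tumours, against 5.07 to 6.07 elsewhere, and was 0.66 ± 0.09 (SE) higher with an adjusted p of 1.66e-08 by limma. Plxna3, which pairs with Nrp2 to receive Sema3f, ran from 6.17 to 6.86, against 6.61 to 8.07 elsewhere, and was at -0.65 ± 0.10 (SE) with an adjusted p of 2.57e-07. The ranges overlapped in both genes, between 5.91 and 6.07 for Plxna2 and between 6.61 and 6.86 for Plxna3. Plxnb3, a receptor of Sema5a, was at 0.31 ± 0.07 (SE) with an adjusted p of 8.57e-05, but its second probe set gave 0.09. The 5 weaker calls of Plxna4, Plxnb1, Sema5b, Sema6c and Epha8 had differences between 0.21 and 0.28 and were lost with the pair as a block, at adjusted p between 0.0543 and 0.134.

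**Figure D2:**
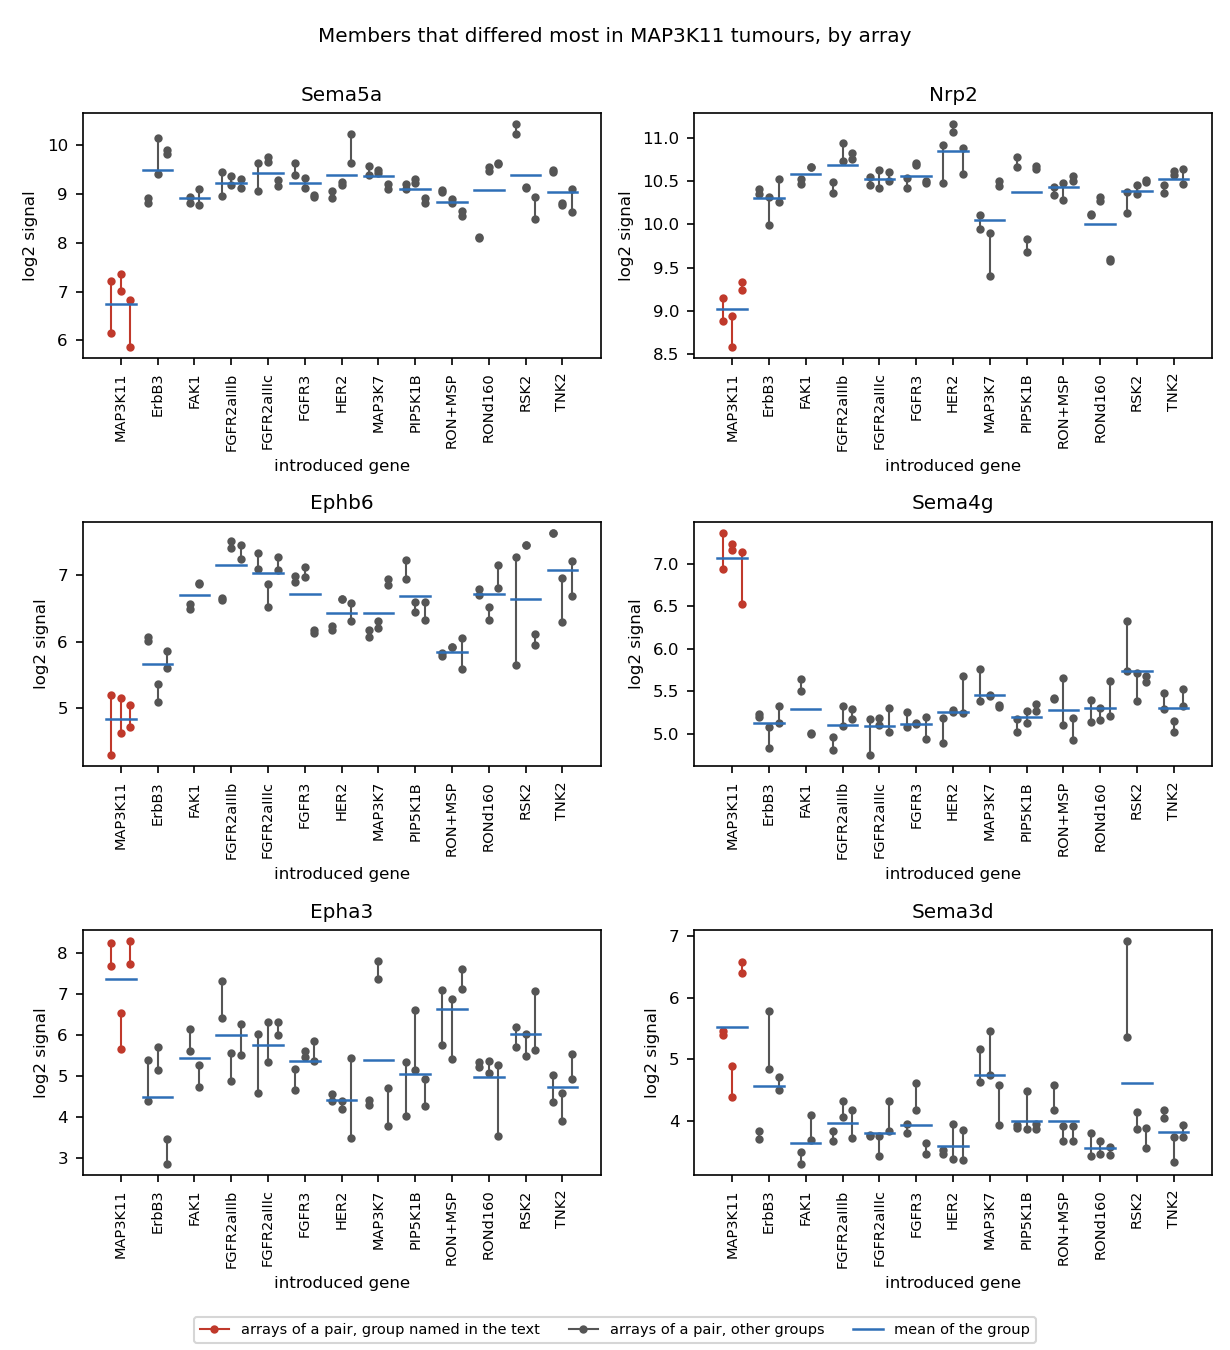
Log2 signal (vertical axis) of 6 members in all 76 arrays by introduced gene, with MAP3K11 in red at the left, arrays of a pair joined by a line and the group mean as a blue bar. Sema5a and Nrp2 lie below and Sema4g above every other array, while Ephb6, Epha3 and Sema3d overlap other groups.

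Among the Eph receptors, Ephb6 and Epha3 carried the largest MAP3K11 differences. Ephb6, whose kinase domain is inactive and which acts through partner receptors, had a lowest value of 4.30, a median of 4.88 and a highest value of 5.20 in MAP3K11 tumours, against 5.10, 6.62 and 7.64 elsewhere. A single array outside the group, ErbB3 T1 replicate 2 at 5.10, lay within the MAP3K11 range. The difference was -1.76 ± 0.17 (SE), or 3.38-fold lower, with an adjusted p of 3.09e-13 by limma.

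Epha3, a receptor of ephrin-A ligands found in embryonic tissue and in several tumours, had a lowest value of 5.67, a median of 7.72 and a highest value of 8.29 in MAP3K11 tumours, against 2.86, 5.36 and 7.80 elsewhere. The groups overlapped, and the MAP3K11 arrays themselves spread over more than 2 log2 units. The difference was 1.99 ± 0.38 (SE), or 3.99-fold higher, with an adjusted p of 9.09e-06 by limma and 0.00185 with the pair as a block. The other 3 Epha3 probe sets were higher by 0.37 to 1.71.

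Ephb4 and its ligand Efnb2, the pair that marks veins and arteries, went in opposite directions. Ephb4 was 0.35 ± 0.08 (SE) higher in MAP3K11 tumours, with an adjusted p of 0.000108 by limma. Efnb2 was at -0.52 ± 0.10 (SE), with an adjusted p of 7.21e-06 and all 4 probe sets between -0.83 and -0.51. No other ephrin was called in MAP3K11 tumours.

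Partner genes outside the family were counted from lists. Of 33 semaphorin and plexin signalling partners tested, 17 were higher and 4 lower in MAP3K11 tumours. Of 29 Eph and ephrin partners, 11 were higher and 9 lower, and of 20 slits, netrins, repulsive guidance molecules and their receptors, 9 were higher and 2 lower. Of 14 ligands and receptors that share neuropilins or plexins, 4 were higher and 2 lower. These counts stand beside the 25% of all genes called higher and 29.3% called lower. The partners that moved most included L1cam, an adhesion molecule that joins Nrp1 in the Sema3a receptor, which averaged 8.81 ± 0.33 in MAP3K11 tumours (SD, n = 6) against a mean of 5.90 elsewhere, a difference of 2.92 by limma. Ntn1, a netrin that guides axons through Dcc and Unc5 receptors, differed by -2.32. Ngef, an exchange factor activated by Epha4, differed by 1.82, the Robo ligand Slit3 by 1.78, the plexin effector Mical1 by 1.57 and the small GTPase Rnd2 by 1.13.

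MAP3K11 and MAP3K7 are both mitogen-activated kinase kinase kinases, and the design names them as the tested pair, so they were set against each other directly, a comparison added after seeing the data. Here 17 of 49 members were called by limma, 9 higher and 8 lower in MAP3K11 tumours. That stood beside 37.4% of all genes tested (16.6% higher, 20.8% lower). With the pair as a block it was 11 members (22.4%), beside 21.6% of all genes. Sema5a at -2.63 ± 0.26 (SE), Ephb6 at -1.59 ± 0.24, Sema3a at -1.41 ± 0.19 and Nrp2 at -1.03 ± 0.15 were lower in MAP3K11 tumours, with every array below every MAP3K7 array. Sema4g at 1.61 ± 0.13 and Sema4f at 0.67 ± 0.08 were higher, again without overlap. The adjusted p was at most 1.68e-07 for these 6. How many of all genes tested separated MAP3K11 from MAP3K7 arrays without overlap was not counted. Sema4d, at -0.92 ± 0.22, and Ephb3, at -0.56 ± 0.17, were also lower.

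Epha3 in this comparison rested on which MAP3K7 arrays were included. It averaged 7.36 ± 1.04 in MAP3K11 tumours and 5.39 with a range of 3.79 to 7.80 in MAP3K7 tumours. The MAP3K7 pair of T1 replicate 2 and T3 replicate 1 had 7.37 and 7.80, and the other 4 MAP3K7 arrays ran from 3.79 to 4.70. The difference was 1.97 ± 0.51 (SE) with all arrays, with an adjusted p of 0.00161 by limma, and 3.07 without that pair.

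The same MAP3K7 pair lay apart from its own group in members of most classes, as in nearly as large a share of all genes. It lay outside the range of the other 4 MAP3K7 arrays for 27 of the 49 members and did not for the rest. The rest included Sema5a, Sema5b and Sema7a, the only tested members of their classes. Epha5, a neural receptor of ephrin-A ligands, had 6.28 and 6.93 in the pair, against 3.36 to 4.07 in the other 4 MAP3K7 arrays. Sema3c, a secreted semaphorin that acts through both neuropilins, had 10.37 and 10.19, against 8.24 to 9.03. Efna5 and Sema6d were also higher in the pair, at 9.36 and 9.44 and at 10.13 and 9.89, against 7.10 to 9.19 and 8.42 to 9.19. Plxnc1, the receptor of Sema7a, Nrp1 and Sema4a were lower in the pair. Plxnc1 had 6.43 and 6.10, against 7.01 to 8.15. These 2 arrays share a profile and carry no separate label, so this is a description without a test.

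Set against the other 12 groups, MAP3K7 tumours had 13 members called by limma, 9 higher and 4 lower. That stood beside 24.4% of all genes tested (12.2% higher, 12.3% lower). With the pair as a block it was 5 members, beside 7.9% of all genes. Ephb3, a receptor that keeps epithelial compartments apart, ran from 7.66 to 8.25 in MAP3K7 tumours, against 6.64 to 8.35 elsewhere, and was 0.67 ± 0.13 (SE) higher with an adjusted p of 8.21e-05. Sema3a ran from 9.53 to 9.97, against 7.37 to 9.99 elsewhere, and was 0.65 ± 0.14 higher with an adjusted p of 0.000418. Both held with the pair as a block. Sema6a and Epha2 were lower, at -0.67 ± 0.17 and -0.57 ± 0.14. Epha2 was not low in every array. It had 10.06 and 9.91 in T1 replicate 2 and T3 replicate 1, against 8.67 to 9.02 in the other 4 MAP3K7 arrays. The count was 9 without the pair that stood apart, and leaving out MAP3K7 T1 replicate 2 alone gave 7. In MAP3K7 tumours 4 of 14 macrophage, 4 of 12 fibroblast and 2 of 9 smooth muscle and pericyte markers were higher and 0 lower, and 3 of 10 epithelial and 2 of 15 skeletal muscle markers were lower and 0 higher. The part of the macrophage, fibroblast, pericyte and epithelial lists was not tested. The members named for MAP3K7 here, and below all but Epha3, Epha5, Sema3a and Sema3b in RONd160, Sema3b in RSK2 and Sema6a in FAK1, were chosen after their values were seen.

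HER2 and ErbB3 encode receptors of the same family that signal as a heterodimer, and their tumours parted clearly in guidance genes. Against the other 12 groups, 21 members were called in HER2 tumours, 13 higher and 8 lower, beside 26.6% of all genes tested (15.5% higher, 11.1% lower), and 20 in ErbB3 tumours, 8 higher and 12 lower, beside 28.6% (15% higher, 13.6% lower). With the pair as a block the counts were 13 and 9, beside 9.55% and 11.9%. These contrasts share controls and each holds the other group on its reference side, so the direct difference was fitted as a comparison added after seeing the data. It called 22 members by limma, 14 higher and 8 lower in HER2 tumours, beside 33.7% of all genes (18.2% higher, 15.5% lower), and 16 with the pair as a block, beside 17.3%. Of the ephrins, 4 of 7 were higher and 1 lower in HER2 tumours.

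Epha2, an ephrin-A receptor abundant in epithelial tumours, and its ligand Efna1 were both higher in HER2 tumours. Epha2 had a lowest value of 9.81, a median of 10.37 and a highest value of 10.53 in HER2 tumours, against 8.43, 8.78 and 9.63 in ErbB3 tumours. Efna1 had 8.50, 8.85 and 9.02 in HER2 tumours, against 7.66, 7.82 and 8.24 in ErbB3 tumours. Neither gene overlapped between the groups. How many of all genes tested separated HER2 from ErbB3 arrays without overlap was not counted. The difference was 1.32 ± 0.19 (SE) for Epha2, with an adjusted p of 2.05e-07 by limma, and 0.95 ± 0.12 for Efna1, with an adjusted p of 3.39e-08. Efna4, Efnb1 and Efnb2 followed with 0.60 ± 0.13, 0.72 ± 0.15 and 0.77 ± 0.13, and each kept its call with the pair as a block. Efna2 was the exception, at -0.60 ± 0.15, with 5.84 to 6.11 in HER2 tumours and 6.46 to 6.70 in ErbB3 tumours. Efna5 and Efnb3 were not called.

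Of the EphB receptors, Ephb3 was lower and Ephb6 higher in HER2 tumours, while Ephb1 and Ephb4 were not called. Ephb3 ran from 6.64 to 6.92 in HER2 tumours, against 6.70 to 8.35 in ErbB3 tumours, a difference of -0.92 ± 0.17 (SE) with an adjusted p of 2.43e-05 by limma. The spread lay on the ErbB3 side, where T1 replicate 1 was at 6.70 and T3 replicate 2 at 8.35. Ephb6 was higher in HER2 tumours at 0.77 ± 0.24, with an adjusted p of 0.00857 and of 0.0973 with the pair as a block.

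Among 20 semaphorins, 3 were higher and 4 lower in HER2 tumours than in ErbB3 tumours. Sema3c had 9.32, 9.70 and 10.04 as lowest, median and highest value in HER2 tumours, against 7.98, 8.25 and 8.80 in ErbB3 tumours, and the difference was 1.45 ± 0.34 (SE) with an adjusted p of 0.000622 by limma. Sema4b, a membrane-bound class 4 semaphorin, had 8.87, 8.91 and 9.24 in HER2 tumours, against 7.26, 7.74 and 8.45 in ErbB3 tumours, a difference of 1.24 ± 0.19 with an adjusted p of 7.32e-07. Neither overlapped. Sema6a, a transmembrane ligand of Plxna2 and Plxna4, was also higher, at 0.76 ± 0.23. Sema3a, Sema3d, Sema3g and Sema4c were lower in HER2 tumours, at -0.86 ± 0.19, -0.95 ± 0.32, -0.91 ± 0.22 and -0.32 ± 0.10, with Sema3d and Sema4c losing the call with the pair as a block.

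The neuropilins moved in opposite directions. Nrp1 had a lowest value of 8.55, a median of 9.31 and a highest value of 9.61 in HER2 tumours, against 10.04, 10.57 and 11.12 in ErbB3 tumours, where it was above all HER2 arrays. The difference was -1.39 ± 0.26 (SE), with an adjusted p of 3.15e-05 by limma and 0.000659 with the pair as a block. Nrp2 was 0.55 ± 0.15 higher in HER2 tumours, with an adjusted p of 0.00266. Plxna1, Plxna3, Plxna4 and Plxnb2 were higher in HER2 tumours by 0.30 to 0.37, of which Plxnb2 kept its call with the pair as a block, and Plxnc1 was at -0.92 ± 0.26.

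Beside these differences, marker lists moved too. In HER2 tumours 8 of 16 endothelial, 8 of 12 fibroblast and 3 of 14 macrophage markers were lower than in the other groups and 0 higher in each of the 3 lists. In ErbB3 tumours 10 of 14 macrophage and 7 of 15 skeletal muscle markers were higher and 0 lower, 5 of 12 fibroblast markers were higher and 2 lower, and 0 of 16 endothelial markers were called. With the endothelial list as a covariate, the HER2 minus ErbB3 difference was 1.02 for Epha2, 0.85 for Efna1, 0.93 for Sema4b, 0.97 for Sema3c and -0.84 for Nrp1, and each stayed called, the weakest being Sema3c at an adjusted p of 0.0194 by limma. The part of fibroblasts and macrophages was not tested.

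**Figure D3:**
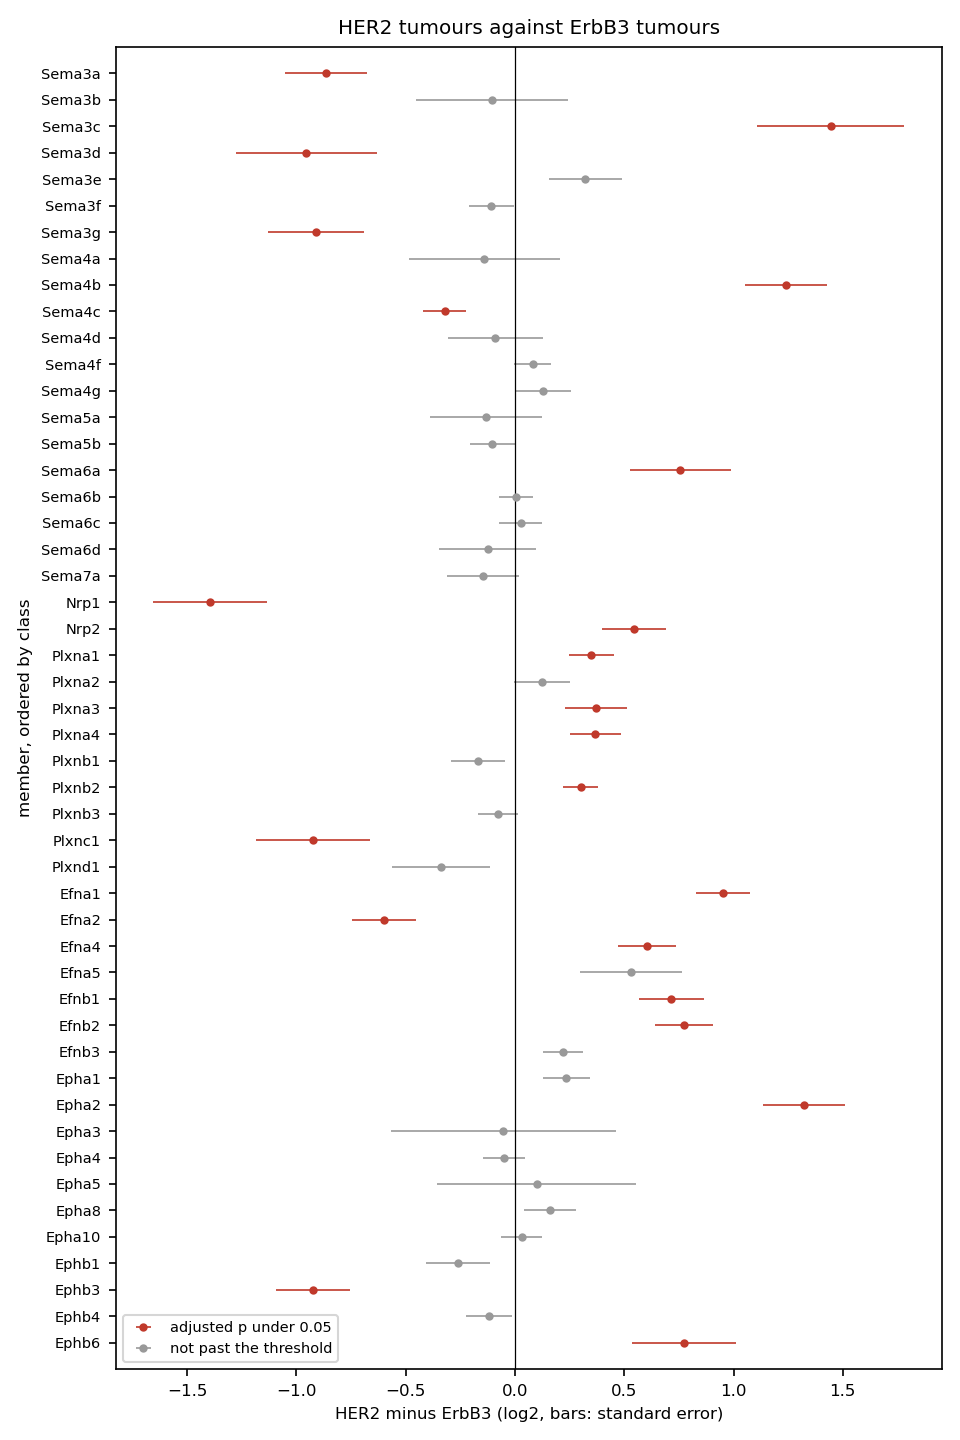
HER2 minus ErbB3 difference (horizontal axis, log2) with its standard error for the 49 members tested, ordered by class, in red where the adjusted p was under 0.05. Sema3c at 1.45, Epha2 at 1.32 and Sema4b at 1.24 lie furthest right and Nrp1 at -1.39 furthest left.

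Epha3 was low in both of these groups. It ran from 3.49 to 5.44 in HER2 tumours and from 2.86 to 5.70 in ErbB3 tumours, and was at -1.20 ± 0.38 (SE) and -1.14 ± 0.38 against the other 12 groups, with adjusted p of 0.0145 and 0.0197 by limma. Both calls were lost with the pair as a block, at 0.148 and 0.175. The ErbB3 call was also lost without the MAP3K11 arrays, at 0.0542. Leaving out HER2 T3 replicate 1 ended the HER2 call, at 0.0718, and leaving out ErbB3 T2 replicate 1 or T3 replicate 3 the ErbB3 call, at 0.103 and 0.136. RON+MSP tumours had the opposite sign, with 5.43 to 7.62 and a difference of 1.22 ± 0.38, which had an adjusted p of 0.0315 and of 0.311 with the pair as a block. That call also ended, at adjusted p of 0.0743 to 0.112 by limma, without any 1 of RON+MSP T1 replicate 2, T2 replicate 1, T2 replicate 2 or T3 replicate 1. With the endothelial list as a covariate, the adjusted p was 0.0954 for HER2 and 0.0711 for RON+MSP, and with the skeletal muscle list it was 0.0686 for RON+MSP.

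RONd160 and RON+MSP are tumours with a shortened form of the receptor RON and with RON plus its ligand MSP. RONd160 tumours had 14 members called against the other 12 groups by limma, 2 higher and 12 lower. That stood beside 23.3% of all genes tested (11.4% higher, 11.9% lower). With the pair as a block it was 4 members, beside 8.73% of all genes. Sema3a ran from 7.37 to 8.90 with a median of 8.24 in RONd160 tumours, against 7.88 to 9.99 with a median of 9.33 elsewhere. Its lowest pair had 7.37 and 7.43 and its highest 8.90 and 8.78. The difference was -1.11 ± 0.14 (SE), or 2.15-fold lower, with an adjusted p of 2.02e-08 by limma.

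Sema3b, a secreted semaphorin known as a candidate tumour suppressor in human lung, ran from 4.87 to 5.27 in RONd160 tumours, against 4.64 to 8.40 elsewhere, a difference of -1.01 ± 0.26 (SE) with an adjusted p of 0.0026 by limma. Its other 2 probe sets gave -0.178 and -0.185. Efnb2 and Ephb4 were at -0.48 ± 0.10 and -0.38 ± 0.08, and with Sema3a and Sema3b they are the 4 members that kept the call with the pair as a block. Set against RON+MSP directly, a comparison added after seeing the data, 8 members were called, 2 higher and 6 lower in RONd160 tumours. That stood beside 12.3% of all genes (6.14% higher, 6.11% lower). With the pair as a block it was 2 members, beside 1.45% of all genes. Sema3a at -1.19 ± 0.19 and Efnb2 at -0.60 ± 0.13 were those 2.

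RON+MSP tumours had 4 members called against the other 12 groups, 2 higher and 2 lower, beside 8.57% of all genes tested (4.18% higher, 4.39% lower), and none with the pair as a block, where 0.461% of genes passed. Efnb1 was 0.35 ± 0.11 (SE) higher beside Epha3, and Ephb6 and Sema4d were at -0.66 ± 0.17 and -0.52 ± 0.16 by limma.

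In several other groups a member was high or low in some pairs only. FGFR2aIIIb tumours had 9 members called by limma, 7 higher and 2 lower, beside 11.9% of all genes tested (7.17% higher, 4.69% lower). With the pair as a block it was 2, Epha5 and Epha2, beside 1.91% of all genes. Epha5 had 7.44 and 7.49 in a first FGFR2aIIIb pair, 5.51 and 5.43 in another and 3.84 and 3.88 in the last, against a median of 3.61 over the other groups. Values between 5.15 and 6.93 also occurred in single pairs of MAP3K7, FAK1 and RON+MSP, and 1 array each of FGFR2aIIIc and FGFR3 passed 5. The FGFR2aIIIb difference was 1.72 ± 0.34 (SE), with an adjusted p of 0.000402 by limma and 0.00395 with the pair as a block.

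RSK2 tumours showed the same for Sema3b. A first pair had 8.40 and 8.40, another 6.83 and 6.57 and the last 5.92 and 5.94, against a median of 5.92 elsewhere. The difference was 1.12 ± 0.26 (SE), or 2.18-fold higher, with an adjusted p of 0.00176 by limma and 0.0213 with the pair as a block, and the other 2 probe sets gave 0.42 and 0.48. RSK2 had 8 members called, 5 higher and 3 lower, beside 18.2% of all genes tested (8.73% higher, 9.52% lower). With the pair as a block it was 3 members, beside 2.59% of all genes. Sema3g ran from 5.50 to 6.45 and was 0.86 ± 0.16 higher, with an adjusted p of 0.00025, and 0.41 with an adjusted p of 0.121 after the endothelial covariate. In RSK2 tumours 13 of 16 endothelial, 7 of 12 fibroblast and 13 of 15 skeletal muscle markers were higher. Over all members, the endothelial covariate gave 1 RSK2 call and the skeletal muscle covariate 5. The part of the fibroblast list was not tested.

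FAK1 tumours, with 4 arrays, had 4 members called, 2 higher and 2 lower, beside 8.42% of all genes tested (3.42% higher, 5.0% lower). With the pair as a block it was 2 members, beside 0.808% of all genes. Sema6a had 4.06, 4.60, 5.32 and 5.35 in FAK1 tumours, against a range of 4.75 to 7.17 elsewhere, and was at -1.12 ± 0.21 (SE) with an adjusted p of 0.000305 by limma. Its other 2 probe sets gave -0.39 and -0.08. Sema7a had 11.39, 11.50, 12.18 and 12.27, against 10.46 to 11.77 elsewhere, and was 0.71 ± 0.15 higher with an adjusted p of 0.00129. The upper pair lay above every other array. In FAK1 tumours 8 of 16 endothelial, 4 of 12 fibroblast and 3 of 9 smooth muscle and pericyte markers were lower and 0 higher. The part of the fibroblast and pericyte lists was not tested.

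PIP5K1B tumours had 5 members called, 0 higher and 5 lower, beside 18.7% of all genes tested (11.2% higher, 7.45% lower). With the pair as a block only Plxnd1 kept the call, beside 3.61% of all genes. Plxnd1, the endothelial receptor of Sema3e, had 7.23 and 7.31 in a first pair, 7.97 and 7.90 in another and 9.29 and 9.36 in the last. The difference of -0.66 ± 0.17 (SE; adjusted p 0.00388 by limma) was -0.40 with an adjusted p of 0.0823 after the endothelial covariate, and 12 of 16 endothelial and 6 of 12 fibroblast markers were lower and 0 higher in these tumours. The part of the fibroblast list was not tested. TNK2, FGFR2aIIIc and FGFR3 tumours had 2, 2 and 1 members called, and 0 each with the pair as a block. That block fit called 0.0937%, 0.0721% and 0% of all genes. Without the block, 3.26% of all genes tested were higher and 1.9% lower in TNK2 (5.16% in all). The shares were 1.08% higher and 0.534% lower in FGFR2aIIIc (1.62%), and 1.35% higher and 1.25% lower in FGFR3 (2.6%). The members were Sema4a at 0.84 ± 0.26 and Ephb6 at 0.68 ± 0.18 in TNK2, Ephb6 at 0.63 ± 0.18 and Sema4g at -0.35 ± 0.10 in FGFR2aIIIc, and Sema3a at 0.59 ± 0.14 in FGFR3. The reference side of these differences holds the MAP3K11 arrays. Without them, 0 members were called in TNK2, FGFR2aIIIc or FGFR3 tumours.

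**Figure D4:**
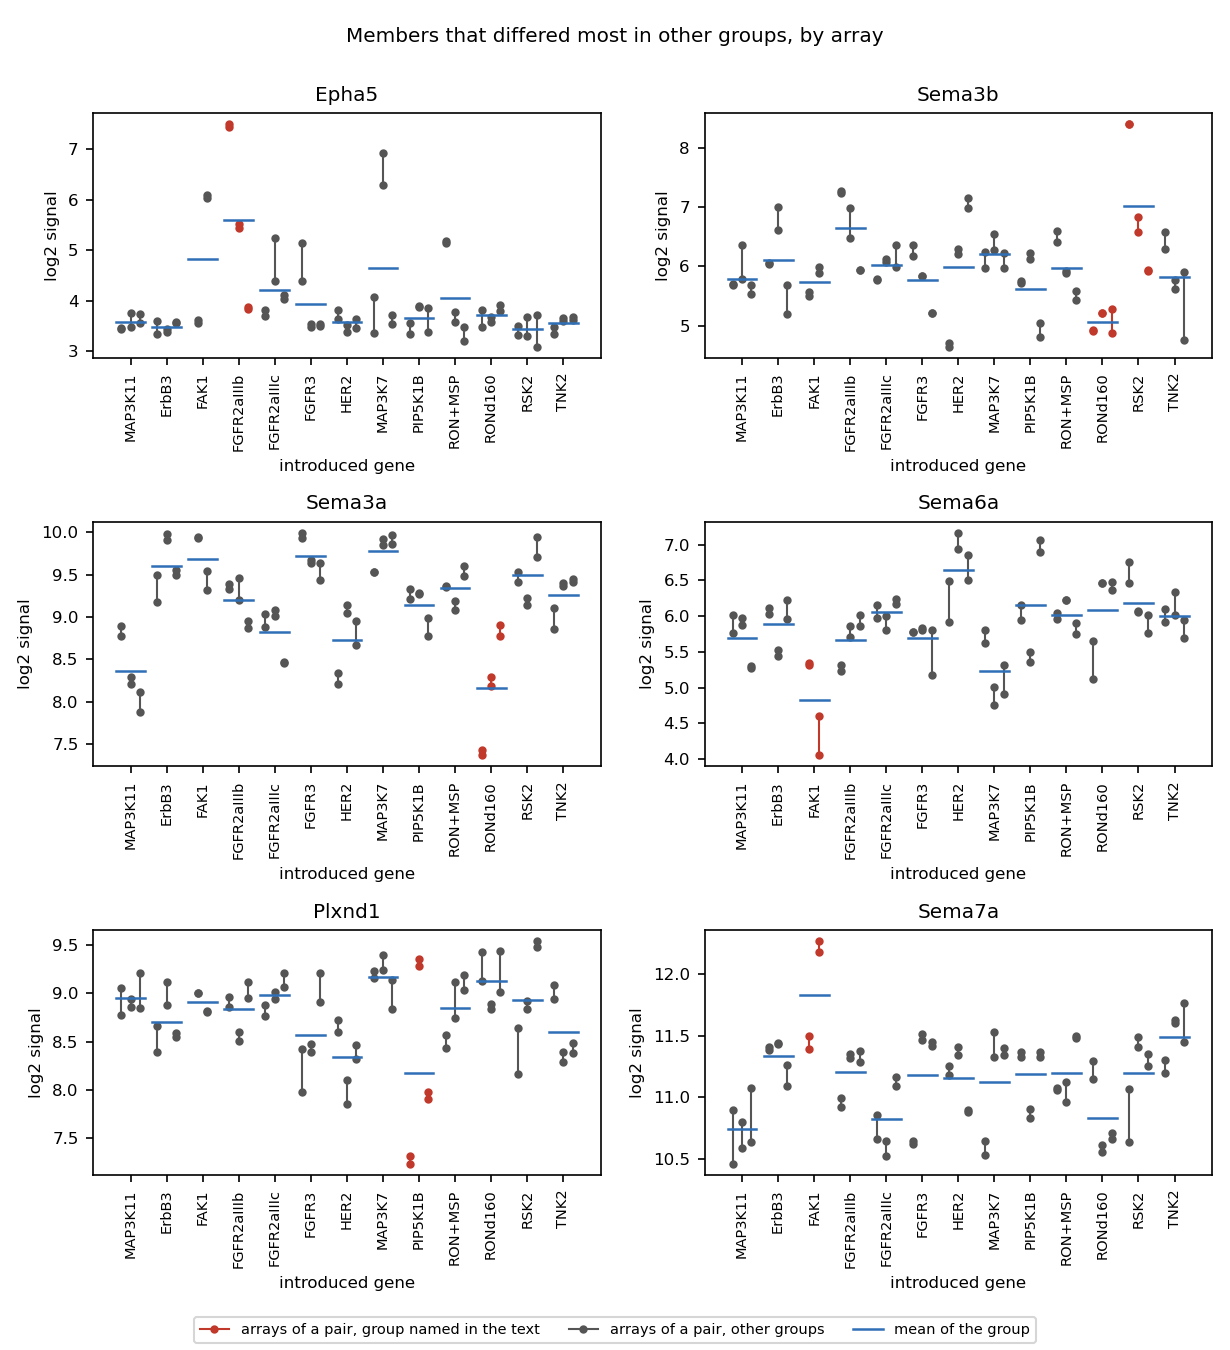
Log2 signal (vertical axis) of 6 members in all 76 arrays by introduced gene, arrays of a pair joined by a line, the group mean as a blue bar and the groups named in the text in red. Epha5 in FGFR2aIIIb, Sema3b in RSK2 and Plxnd1 in PIP5K1B differ more between pairs of a group than within them.

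Across the family, the difference between pair means of a group exceeded that within a pair by a median factor of 1.67, against 1.41 over all genes tested. It exceeded a factor of 2 for 18 of 49 members (36.7%) and for 21.3% of all genes. Sema7a at 4.82, Sema3b at 4.68 and Sema3a at 4.08 had the largest factors. Since pairs were matched on autosome medians of these same arrays, these factors are descriptions with no test.

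**Figure D5:**
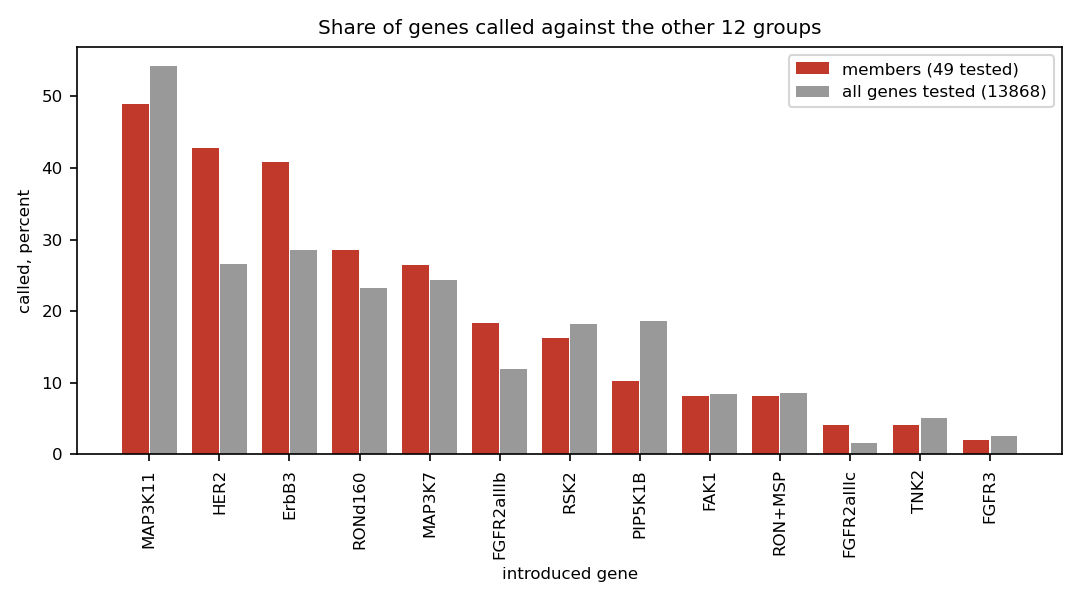
Share of genes called against the other 12 groups (vertical axis, percent) for the 49 members in red and all 13868 genes tested in grey, by introduced gene. Members lie above all genes in HER2 (42.9% and 26.6%) and ErbB3 (40.8% and 28.6%) and below them in MAP3K11 (49.0% and 54.2%) and PIP5K1B (10.2% and 18.7%).

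Sema3a was called in 7 of 13 groups, and in 5 with the pair as a block. It was lower in RONd160, MAP3K11 and HER2 tumours and higher in MAP3K7, FGFR3, FAK1 and ErbB3 tumours, and the FGFR3 and FAK1 calls were lost with the block. Ephb6 was called in 6 groups, lower in MAP3K11, ErbB3 and RON+MSP and higher in FGFR2aIIIb, TNK2 and FGFR2aIIIc, of which MAP3K11 and ErbB3 kept the call with the block. These contrasts share their control arrays. Without the MAP3K11 arrays, the Sema3a call in FGFR3 and the Ephb6 calls in TNK2 and FGFR2aIIIc were lost. The 4 members that did not pass the filter stayed low, with medians between 2.94 for Epha6 and 3.96 for Efna3, and their highest single values were 5.42 for Efna3, 5.09 for Epha7, 3.80 for Plxna4os1 and 3.38 for Epha6.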

How the data were processed

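Biotinylated cRNA from total RNA of 76 tumours was hybridised to Affymetrix mouse arrays, per the labels' protocols. The authors deposited log2 signals per probe set. The submitters' processing notes name the affy package; the normalization method was not given in the sources used here. Deposited log2 values were used unchanged. Of 45101 probe sets, 34958 had 1 gene symbol in the platform annotation, 932 several and 9211 none. The probe set with the highest mean stood for a gene, and genes above an array's 40th percentile in at least 4 arrays were tested. limma 3.58.1 in R 4.3.3 fitted group and T label over 76 arrays, giving each group against the mean of the other 12 group means, with Benjamini-Hochberg adjustment over 13868 genes and a threshold of 0.05. The fit was tested on simulated data with independent arrays and no pairs, so that test could not show how pairing affects the calls. Array number limits the precision. Members, gene lists and tests were chosen with earlier results of these data known. Members were named by a rule: up to 10 highest and 10 lowest called in MAP3K11, up to 2 each way with a difference of at least 1 in other groups, the 6 widest ranges, members separating a group, and those failing the filter. Pairs of arrays were matched within groups on autosome medians over 13374 genes, and entered as a random block with a correlation of 0.628. Same-numbered arrays' deviations had a median correlation of -0.014, so numbers were not taken as pairing samples. Alternatives covered scaling, filter, probe set choice, weights, covariates and left-out arrays.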

Additional observations from a re-analysis of the deposited data

Results flagged for a closer look

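Sema3c in ErbB3 tumours had 1 array far from the others. ErbB3 T3 replicate 1 was at 8.80, while the other 5 ErbB3 arrays ran from 7.98 to 8.27. Among 127 called differences checked for such a gap this was the only one. The gap was judged by Dixon's critical value, which by its nominal rate flags about 1 in 20 groups by chance. The array still lay below the lowest HER2 value of 9.32.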

How the results depend on the processing

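Counts of members called moved by over 1.5 times in these settings, and the cause was not tested. With the pair as a block they were ErbB3 9, HER2 13, MAP3K7 5, RONd160 4, RSK2 3, FAK1 2, FGFR2aIIIb 2, PIP5K1B 1, 0 for FGFR2aIIIc, FGFR3, RON+MSP and TNK2, 11 for MAP3K11 against MAP3K7 and 2 for RONd160 against RON+MSP. At an adjusted p under 0.01 they were ErbB3 10, HER2 13, MAP3K7 7, RONd160 6, RSK2 5, FGFR2aIIIb 4, FAK1 2, PIP5K1B 2, 0 for FGFR2aIIIc, FGFR3, RON+MSP and TNK2, and 2 for RONd160 against RON+MSP. Array weights, whose fit gave a convergence warning, gave FAK1 1, FGFR2aIIIb 16, FGFR2aIIIc 6, FGFR3 14, PIP5K1B 17 and TNK2 7. Without MAP3K11 arrays they were FAK1 2, FGFR2aIIIb 4, PIP5K1B 3, and 0 for FGFR2aIIIc, FGFR3 and TNK2. The endothelial covariate gave FAK1 2, FGFR2aIIIb 5, FGFR3 3 and RSK2 1, and the skeletal muscle covariate RON+MSP 1, RSK2 5 and TNK2 1. Median centring gave FGFR2aIIIc 0, RSK2 13, TNK2 1 and RONd160 against RON+MSP 5. No filter gave FGFR2aIIIc 0, TNK2 1 and RONd160 against RON+MSP 5, and the median over probe sets FGFR2aIIIc 0, RON+MSP 2 and RONd160 against RON+MSP 4. The replicate block, and leaving out the T label, each gave FGFR3 2 and moved no other count by over 1.5 times.

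Leaving out each array in turn gave 23 to 25 for MAP3K11, 16 to 24 for HER2, 12 to 21 for ErbB3 (lowest without ErbB3 T3 replicate 2), 8 to 14 for RONd160 (without RONd160 T3 replicate 2), 7 to 17 for MAP3K7 (without MAP3K7 T1 replicate 2), 5 to 11 for FGFR2aIIIb (without FGFR2aIIIb T3 replicate 1), 6 to 12 for RSK2 (highest without RSK2 T2 replicate 3), 2 to 11 for FAK1 (without FAK1 T1 replicate 2 and T1 replicate 1), 1 to 6 for PIP5K1B (without PIP5K1B T1 replicate 1), 1 to 5 for RON+MSP (without RON+MSP T3 replicate 1), 0 to 3 for TNK2 (lowest without TNK2 T2 replicate 3), 0 to 2 for FGFR2aIIIc (lowest without ErbB3 T2 replicate 1) and FGFR3 (lowest without FGFR3 T2 replicate 1), 44 to 47 for the F test, 0 to 0 for the T label, 21 to 23 for HER2 against ErbB3, 15 to 20 for MAP3K11 against MAP3K7 and 3 to 10 for RONd160 against RON+MSP (lowest without RON+MSP T2 replicate 2). The 26 named differences were refitted under up to 90 settings each, most of which left out 1 array. They were named for being called and large, so their stability does not speak for the other calls. Of the combinations of difference and setting, 2303 kept direction and call, 19 kept direction only and 0 reversed. Those 19 were all Epha3 in ErbB3, HER2 or RON+MSP, or Sema3g in MAP3K11.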
